A study of Homo sapiens with 9 samples.

Results

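The genes described here are the NF-kB pathway genes, chemokines and cytokines of Huh7 cells, a set of 44 named genes in 9 roles. They comprise chemokines, cytokines, the Rel subunits of NF-kB, the IkB proteins, the IKK kinases, adaptors and ubiquitin ligases upstream of the kinases, feedback inhibitors, induced targets, and the IL-6 receptor and STAT3 arm. The genes were chosen by symbol from all 32906 genes of the deposited lists. Of the 44, 41 were listed, while CXCL1, CXCL5 and CCL20 have no values here. SOD2 was listed under 2 identifiers, which gave 42 genes. Of these, 33 reached a mean of 1 FPKM (fragments per kilobase of exon, scaled to the depth of the library) in at least 1 group and were tested. All 3 groups reached that mean for 29 of the 33, and only 1 or 2 groups for 4 (IL11, CCL2, CSF1 and RELB). The question was whether the weak signal of CXCL2, a chemokine that the study followed up as a KDM4C target, was part of a wider change in inflammatory genes.

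NF-kB is a family of transcription factors built as dimers of Rel subunits. In resting cells, IkB proteins hold the dimers in the cytoplasm. Receptors for TNF, IL-1 and Toll-like receptor ligands act through TRAF, IRAK and BIRC proteins on the IKK complex, which marks the IkB proteins for destruction and frees the dimers to enter the nucleus. A slower, alternative branch runs through CHUK (IKK alpha) to the NFKB2 and RELB subunits and is held back by TRAF2, TRAF3, BIRC2 and BIRC3. In liver cells the pathway drives chemokines, cytokines, survival genes and its own inhibitors, and IL-6 made downstream of it acts through IL6ST and STAT3.

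The libraries are labelled Huh7, an established human hepatocellular carcinoma line. One group received Scramble siRNA as the control, and each of the others received an siRNA against the histone demethylase KDM4C, named Si-KDM4C#1 and Si-KDM4C#2. Total RNA was collected at 48 hours. Each group had 3 libraries, numbered 1 to 3 and given in that order below. The labels do not say whether the libraries of a group came from separate cultures, so p-values measure only the spread between these libraries. All groups come from a single cell line, and both comparisons with Scramble share the same control libraries.

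KDM4C itself had 4.88, 4.63 and 4.57 FPKM in the Scramble libraries, 1.18, 1.1 and 1.13 FPKM with Si-KDM4C#1 and 0.256, 0.349 and 0.256 FPKM with Si-KDM4C#2. Its change against Scramble on log2(FPKM + 1), the scale of all fold changes below, was -1.41 ± 0.08 (adjusted p = 2.65e-07) and -2.15 ± 0.08 (adjusted p = 5.45e-08) by limma-trend (± SE). Its paralog KDM4B had group means of 6.28 ± 0.34, 5.77 ± 0.633 and 1.17 ± 0.0814 FPKM (mean ± SD, n = 3, in the order Scramble, Si-KDM4C#1, Si-KDM4C#2), and was lower with Si-KDM4C#2 by 1.74 (adjusted p = 1.43e-07). Its part in the differences between the siRNAs was not tested. The libraries held between 14597501 and 18058554 fragments, recovered from the values. The 8 listed genes of a list of 13 hepatocyte markers were under 1 FPKM in all 9 libraries, with a summed level of 0.0483 to 0.271 FPKM per library. The hepatocyte marker levels go against a hepatocyte-derived line, and the label Huh7 is used as given. COL3A1, a fibrillar collagen and the highest of 6 fibroblast and endothelial markers, had group means of 27.5 to 55.5 FPKM. Of these 6, 3 were under 1 FPKM in all Scramble and all Si-KDM4C#2 libraries, and 4 in all Si-KDM4C#1 libraries. Of 5 epithelial markers, 4 were listed, with a summed level of 240.1 to 353 FPKM carried by KRT8 and KRT18. The other 2 were under 1 FPKM in all libraries. Leukocyte markers (6 of 8 listed, CSF1R the highest) summed to 1.34 to 1.75 FPKM in the Scramble libraries, 0.642 to 0.984 FPKM with Si-KDM4C#1 and 0.894 to 1.16 FPKM with Si-KDM4C#2, and their part in the results was not tested. In bulk RNA, fewer cells of a type and less RNA per cell cannot be told apart.

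Sequences around the starts of these genes are shown because NF-kB acts on its target genes through a short DNA element. RefSeq promoter windows (GRCh38.p14, from 250 bases before to 50 after each start) were at hand for 36 of the 44 genes. Of the 36, 15 (41.7%) held a match to the kappa B consensus, the binding motif of NF-kB, searched on both strands, against 1937 of 27305 genes (7.09%) in the whole table. TATAAA on either strand was present for 7 of the 36 (19.4%), against 14% of all genes. The set was chosen as NF-kB pathway genes and includes NF-kB targets, so its higher share of kappa B matches follows from the choice. A match is a description of letters and not of binding.

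In the stretches below, each written 5′ to 3′ on the strand of the gene, capitals mark the letters matched on either strand. The CXC chemokines of the chromosome 4 cluster, CXCL2 among them, share the same core of letters, which in CXCL2 begins 78 bases before the RefSeq start and lies inside an exon of a GENCODE release 29 transcript that starts farther upstream.
CXCL2, chr4:74099254-74099283, minus strand: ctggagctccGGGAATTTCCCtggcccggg
CXCL3, chr4:74038749-74038778, minus strand: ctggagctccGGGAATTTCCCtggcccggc
CXCL1, chr4:73869304-73869333, plus strand: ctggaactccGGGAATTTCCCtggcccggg
CXCL5, chr4:73998749-73998778, minus strand: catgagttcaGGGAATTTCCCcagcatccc
CXCL8, the neighbour in the same cluster, had no match in its window. For chromatin immunoprecipitation at CXCL2 the study listed several primer pairs, and the first spans the CXCL2 match. Its primers, ggcagaaagagaacatcccac and aacggcgaaccccttttatg, lie from 221 to 201 and from 31 to 12 bases before the start. The second pair, from 224 to 205 and from 34 to 15 bases, spans the match as well. Of the third pair, only the forward primer was found in the window. It lies from 187 to 168 bases before the start and points away from the match.

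The second set of stretches belongs to some of the members described below that moved in different directions, and is not complete. Further NFKB2 matches, 176 and 21 bases before a RefSeq start, are not printed, nor are those of REL, CCL20, NFKBIZ, TNIP1 and IL6. A second match of TNFAIP3 runs past the end of its stretch.
NFKBIB, chr19:38899931-38899960, plus strand: gggcgtggtgGGGAATTTCCCgcagggcgg
NFKB1, chr4:102501300-102501329, plus strand: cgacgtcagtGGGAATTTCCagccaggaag
NFKB2, chr10:102394461-102394490, plus strand: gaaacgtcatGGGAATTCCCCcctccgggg
NFKB2, chr10:102394490-102394519, plus strand: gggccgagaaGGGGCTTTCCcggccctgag
NFKBIA, chr14:35404811-35404840, minus strand: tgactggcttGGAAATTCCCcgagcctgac
TNFAIP3, chr6:137867182-137867211, plus strand: acgtgactttGGAAAGTCCCgtGGAAATCC
BIRC3, chr11:102317275-102317304, plus strand: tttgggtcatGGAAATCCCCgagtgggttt
BIRC3, chr11:102317339-102317368, plus strand: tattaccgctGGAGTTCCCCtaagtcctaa
NFKBIB rose with both siRNAs, NFKB1 with Si-KDM4C#1 alone, while NFKBIA, TNFAIP3 and BIRC3 fell with both and NFKB2 moved in opposite directions. With Si-KDM4C#1, 4 of the 12 higher and 3 of the 11 lower members in the window table held a match. With Si-KDM4C#2, 2 of 6 higher and 4 of 12 lower members did. The share with a match was thus 33.3% and 27.3% with Si-KDM4C#1 and 33.3% for both directions with Si-KDM4C#2. CXCL16, CCL2, IL18, LIF, CSF1, RELB, NFKBIE and IKBKB had no window and are not counted here. Of the members not called, 2 of 2 (100%) held a match with Si-KDM4C#1 and 3 of 7 (42.9%) with Si-KDM4C#2. These are too few to compare with the called members. No test was run on these shares.

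Against Scramble, the set moved in both directions. With Si-KDM4C#1, 15 of the 33 tested members were higher at an adjusted p under 0.05 (45.5%, against 31.7% of all 14363 genes tested) and 13 were lower (39.4%, against 33.9%). The median change of the 33 members was 0.07 log2 units, beside -0.03 over all genes tested. With Si-KDM4C#2, 6 members were higher (18.2%, against 34.4% of all genes) and 15 were lower (45.5%, against 25%), with a median of -0.13 beside 0.06 over all genes. Since 65.7% and 59.4% of all genes passed the same threshold in either direction, a call at this threshold is common in these libraries. Past a 2-fold change as well, 3 members were higher with Si-KDM4C#1 (NFKBIB, RELB and IRAK1, against 4.04% of all genes) and 1 was lower (CHUK, against 4.83%), where 8.87% of all genes passed in either direction. With Si-KDM4C#2, 1 was higher (NFKBIB, against 2.6%) and 4 were lower (CXCL16, CHUK, BIRC3 and IL6ST, against 2.3%), where 4.89% of all genes passed in either direction.

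**Figure D1:**
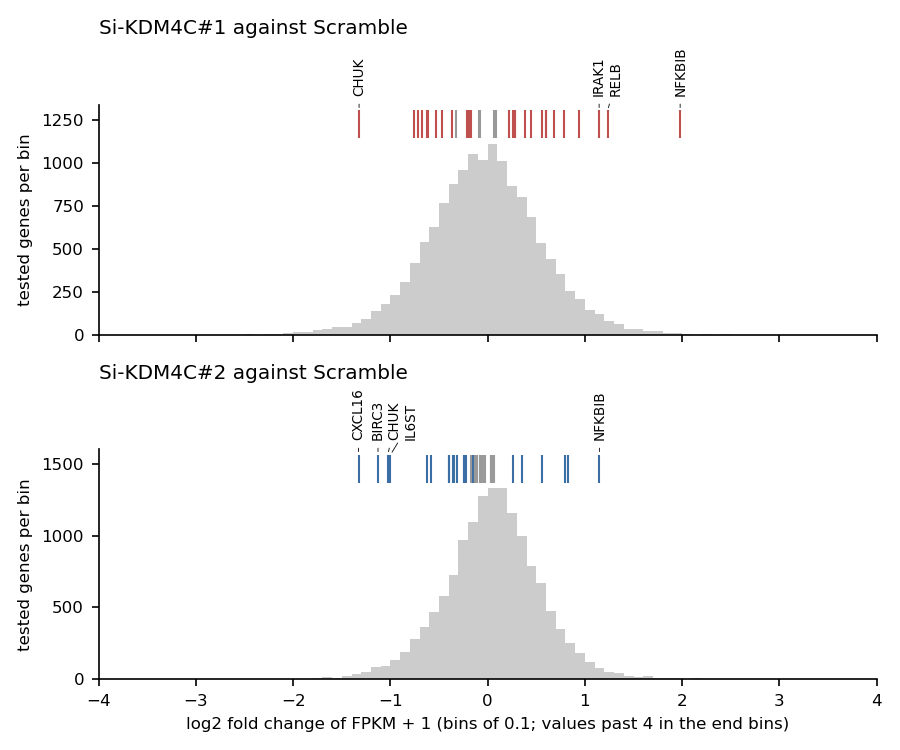
Log2 fold changes of FPKM + 1 against Scramble of all 14363 tested genes (grey bars, genes per bin of 0.1 on the x axis) with the 33 tested members as ticks above, coloured where the adjusted p was under 0.05 and grey otherwise. The members spread over both sides of 0 with each siRNA, and the names mark those past a log2 change of 1 in either direction.

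By direction, 6 of the 33 members (18.2%, against 19.4% of all genes tested) were higher with both siRNAs (NFKBIB, NFKBIZ, TRAF2, IRAK1, SOD2 and SOCS3) and 10 (30.3%, against 15.2%) were lower with both (IL11, RELA, NFKBIA, CHUK, BIRC2, BIRC3, TNFAIP3, TNFAIP2, IL6R and IL6ST). CXCL16, IL18, NFKB2 and STAT3 (12.1%, against 4.11%) went opposite ways, rising with Si-KDM4C#1 and falling with Si-KDM4C#2, and 0 members went the reverse way (against 5.66%). Another 5 were higher with Si-KDM4C#1 alone at this threshold (NFKB1, RELB, IKBKE, TRAF6 and ICAM1, against 8.28%), 3 were lower with Si-KDM4C#1 alone (CCL2, IKBKB and IRAK2, against 13%) and LIF was lower with Si-KDM4C#2 alone (against 5.65%). CSF1, REL, NFKBIE and TNIP1 (12.1%, against 19.3%) passed with neither. IL11 was tested only because its Scramble mean reached 1 FPKM, and entry through that group favours a call as lower. Because the Scramble libraries are shared, these patterns are given as counts beside those of all genes, with no test, and the comparisons are not independent. Set directly against each other, Si-KDM4C#2 was higher than Si-KDM4C#1 for 9 of the 33 members (against 35.9% of all genes) and lower for 16 (against 26.5%), where 62.4% of all genes differed in either direction. With voom the split was 6 higher and 18 lower, with no share of all genes taken under that setting. Past a 2-fold difference, 0 members were higher (against 4.41%; 9 passed the adjusted p by limma-trend without that limit, and CCL2 passed with it by voom) and 5 were lower (CXCL16, IL18, NFKB2, RELB and STAT3, against 2.49%), where 6.91% of all genes passed in either direction.

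**Figure D2:**
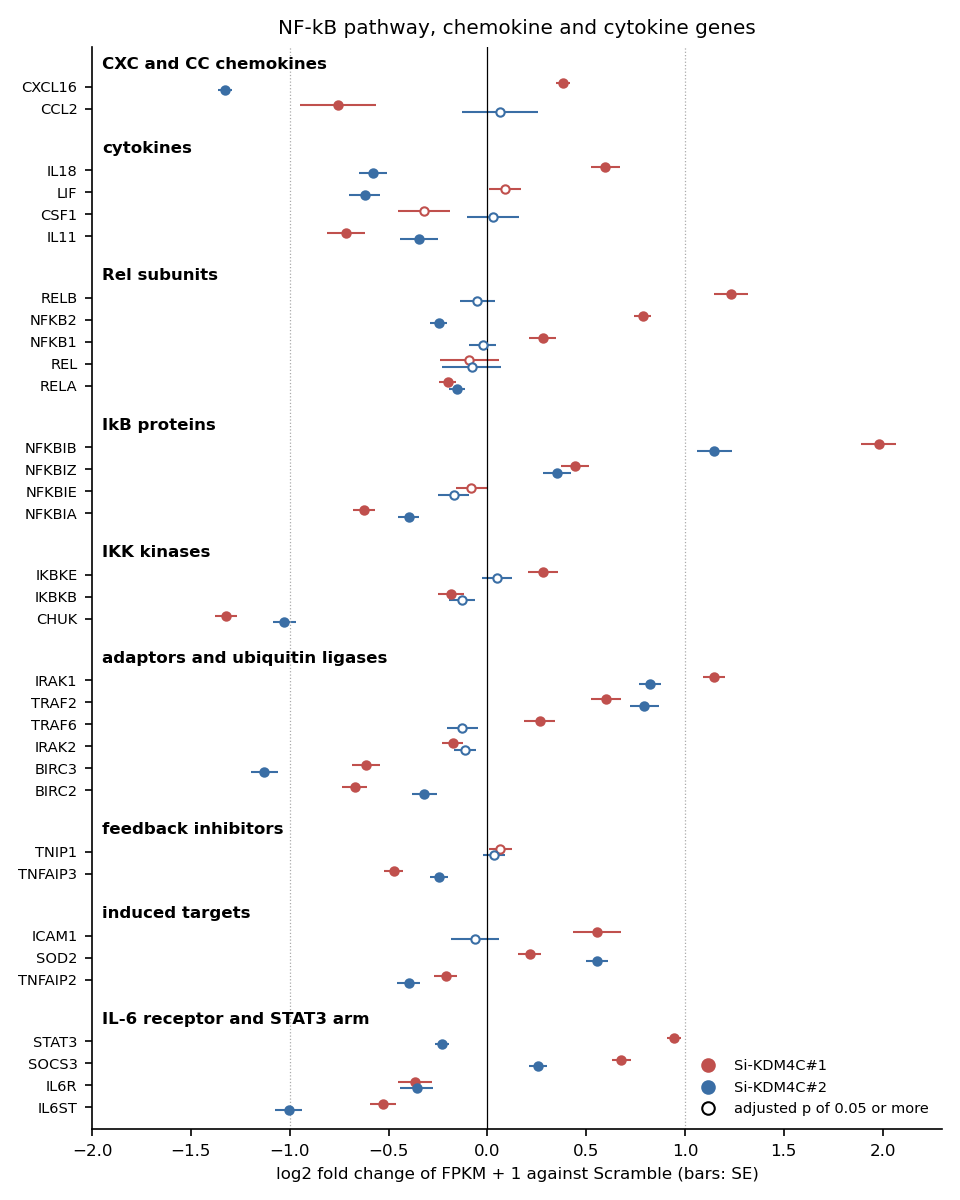
Log2 fold change of FPKM + 1 against Scramble (x axis, bars are SE) for each tested member by role, with Si-KDM4C#1 in red and Si-KDM4C#2 in blue, and open circles where the adjusted p was 0.05 or more. NFKBIB lies farthest right with both siRNAs, CHUK lies past -1 with both, and CXCL16, IL18, NFKB2 and STAT3 lie on opposite sides of 0.

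The CXC chemokines of the chromosome 4 cluster attract neutrophils and were close to the detection limit. CXCL2 (chr4:74097035-74099293, minus strand, GRCh38) had 0.265, 0.293 and 0.622 FPKM in the Scramble libraries, 0.886, 0.411 and 1.08 FPKM with Si-KDM4C#1 and 1.03, 0.728 and 0.586 FPKM with Si-KDM4C#2. These values correspond to 6, 7 and 16 fragments, 24, 9 and 26 fragments and 24, 17 and 15 fragments. The third Scramble library lay above the second Si-KDM4C#1 library and the third Si-KDM4C#2 library, so the groups overlapped. Mean CXCL2 was 2.01 and 1.99 times the Scramble mean. Its change of 0.35 ± 0.18 (adjusted p = 0.204) and 0.36 ± 0.18 (adjusted p = 0.211) did not pass limma-trend over all 32906 listed genes. On the recovered fragments with limma voom, the log2 change was 1.04 (adjusted p = 0.0461) with Si-KDM4C#1 and 0.93 (adjusted p = 0.0811) with Si-KDM4C#2.

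CXCL3 (chr4:74036589-74038807, minus strand), another gene of the cluster, had 0.269, 0.0567 and 0.342 FPKM in the Scramble libraries, 0.424, 0.247 and 0.28 FPKM with Si-KDM4C#1 and 0.32, 0.319 and 0.449 FPKM with Si-KDM4C#2. Its groups overlapped, and 9, 2 and 13 fragments stood behind the Scramble values. The change of CXCL3 was 0.11 ± 0.10 (adjusted p = 0.486) and 0.16 ± 0.10 (adjusted p = 0.333). CXCL8 (chr4:73740506-73743716, plus strand), better known as IL-8, had 0.175, 0.0553 and 0.154 FPKM in the Scramble libraries, 0.0487, 0.12 and 0.109 FPKM with Si-KDM4C#1 and 0.312, 0.141 and 0.206 FPKM with Si-KDM4C#2. At 6, 2 and 6, 2, 4 and 4, and 11, 5 and 8 fragments in the groups, CXCL8 changed by -0.04 ± 0.06 (adjusted p = 0.682) and 0.11 ± 0.06 (adjusted p = 0.282). For neither gene was a change detectable at this depth.

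**Figure D3:**
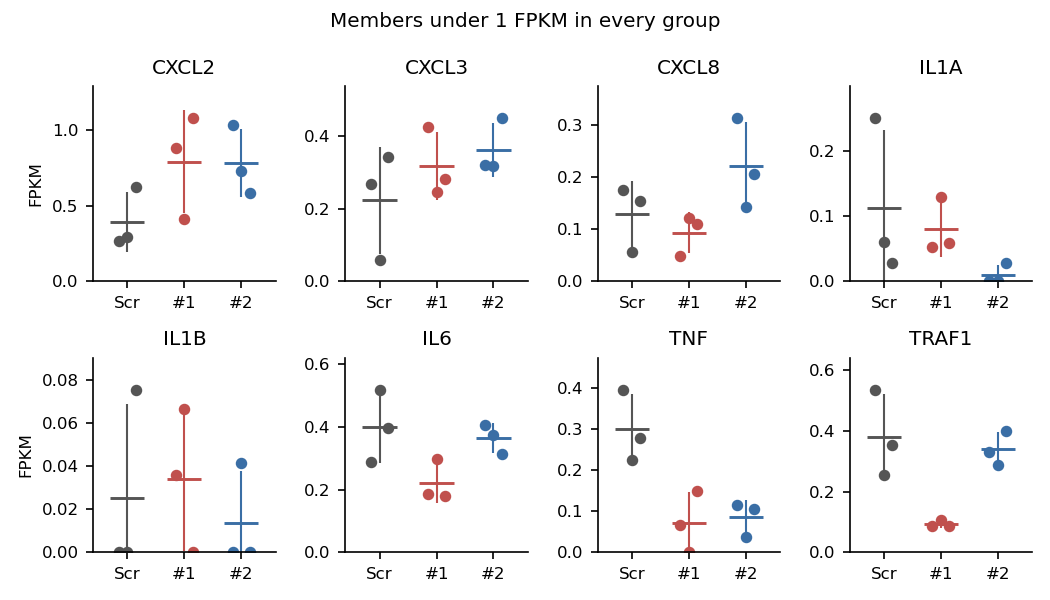
FPKM (y axis, a separate scale for each gene) in each library for the 8 members under 1 FPKM in every group, with Scramble (Scr), Si-KDM4C#1 (#1) and Si-KDM4C#2 (#2) on the x axis, horizontal lines at the mean and vertical lines for 1 SD, which are clipped at 0. The CXCL2, CXCL3 and CXCL8 points of the groups overlap with Scramble, while the TNF points of both siRNA groups lie below all Scramble points.

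Of the other chemokines, CXCL16 (chr17:4733526-4739922, minus strand), a ligand made both as a membrane-bound and a soluble form, was the most abundant. CXCL16 had 19.6, 20.5 and 19.7 FPKM in the Scramble libraries, 26.3, 26.6 and 26 FPKM with Si-KDM4C#1 and 7.27, 7.38 and 7.34 FPKM with Si-KDM4C#2. The groups did not overlap in any pair. It rose with Si-KDM4C#1 by 0.38 ± 0.03 (adjusted p = 7.56e-06) and fell with Si-KDM4C#2 by 1.33 (adjusted p = 1.52e-08), and the siRNAs differed by -1.71 ± 0.03 (adjusted p = 2.12e-09). After a lowess correction for the GC content of genes, made library by library and called GC adjustment below, the rise with Si-KDM4C#1 was 0.25. CCL2, the monocyte chemoattractant, had 1.03, 2.15 and 1.62 FPKM in the Scramble libraries, 0.836, 0.552 and 0.219 FPKM with Si-KDM4C#1 and 2.01, 1.42 and 1.62 FPKM with Si-KDM4C#2. All Si-KDM4C#1 libraries lay below all others. It fell with Si-KDM4C#1 by 0.76 (adjusted p = 0.00635), to 0.335 of the Scramble mean, while with Si-KDM4C#2 the change was 0.06 ± 0.19 (adjusted p = 0.793). The siRNAs differed for CCL2 by 0.82 ± 0.19 (adjusted p = 0.00437).

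Of the cytokines, the classical inflammatory ones were at or near the floor of 3 fragments. IL1B had between 0 and 4 fragments per library, IL1A between 0 and 8, and TNF between 0 and 10. TNF, the prototype inducer of NF-kB, had 0.395, 0.225 and 0.279 FPKM in the Scramble libraries, 0.0661, 0 and 0.149 FPKM with Si-KDM4C#1 and 0.115, 0.0383 and 0.105 FPKM with Si-KDM4C#2. All libraries of both siRNAs lay below all Scramble libraries. In the fit over all listed genes, TNF changed by -0.28 ± 0.07 (adjusted p = 0.0148) and -0.26 ± 0.07 (adjusted p = 0.0247), from 10, 6 and 8 fragments in Scramble. Both calls ended with quantile normalization, at an adjusted p of 0.0681 and 0.0686. The call with Si-KDM4C#1 also ended after GC adjustment and without Si-KDM4C#1 replicate 2, and the call with Si-KDM4C#2 at a pseudocount of 0.1, without Scramble replicate 1 or 3 and without any of the Si-KDM4C#2 libraries. IL6, which signals through IL6ST, had 0.288, 0.517 and 0.395 FPKM in the Scramble libraries, 0.187, 0.298 and 0.18 FPKM with Si-KDM4C#1 and 0.405, 0.373 and 0.312 FPKM with Si-KDM4C#2. Its changes were -0.19 ± 0.08 (adjusted p = 0.112) and -0.04 ± 0.08 (adjusted p = 0.808). Without Scramble replicate 1, IL6 passed with Si-KDM4C#1, at a change of -0.25 (adjusted p = 0.0401). IL6 shares 428 exonic bases (20.7%) with AC073072.1 on the opposite strand. IL1A and IL1B, the agonists of the IL-1 receptor, passed with neither siRNA, with changes between -0.13 and 0.01. After GC adjustment IL1B passed with Si-KDM4C#1 (0.16, adjusted p = 0.0243 by limma-trend). For members under 1 FPKM in every group, this adjustment was made over all listed genes. There the second identifier of SOD2, at 0 or 1 fragment in every library, also passed with Si-KDM4C#1 (0.13, adjusted p = 0.005). The pass of IL1B is therefore not read as a change.

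IL18, an IL-1 family cytokine made as an inactive precursor, had 13, 13.3 and 13.9 FPKM in the Scramble libraries, 19.4, 19.4 and 23.8 FPKM with Si-KDM4C#1 and 8.74, 8.7 and 8.48 FPKM with Si-KDM4C#2. The groups did not overlap, and IL18 rose with Si-KDM4C#1 by 0.60 ± 0.07 (adjusted p = 5.51e-05) and fell with Si-KDM4C#2 by 0.58 (adjusted p = 9.47e-05). The difference between the siRNAs was -1.18 ± 0.07 (adjusted p = 7.58e-07). IL11, a member of the IL-6 family, had 1.49, 1.55 and 1.57 FPKM in the Scramble libraries, 0.518, 0.59 and 0.536 FPKM with Si-KDM4C#1 and 1.16, 0.914 and 0.922 FPKM with Si-KDM4C#2. It fell with both siRNAs, by 0.71 (adjusted p = 1.13e-04) and 0.35 (adjusted p = 0.011), to 0.356 and 0.649 of the Scramble mean, with no overlap of the groups. After GC adjustment the second fall was 0.60. LIF, also of the IL-6 family, had 5.94, 5.51 and 5.28 FPKM in the Scramble libraries, 5.68, 6.78 and 5.58 FPKM with Si-KDM4C#1 and 3.15, 3.61 and 3.07 FPKM with Si-KDM4C#2. It fell with Si-KDM4C#2 by 0.62 (adjusted p = 1.21e-04), with the Si-KDM4C#2 libraries below all others, and the siRNAs differed by -0.71 ± 0.08 (adjusted p = 4.08e-05). CSF1, the macrophage growth factor, had group means of 1.24 ± 0.287, 0.786 ± 0.185 and 1.27 ± 0.16 FPKM and changed by -0.32 ± 0.13 (adjusted p = 0.0528) and 0.03 ± 0.13 (adjusted p = 0.86). CSF1 passed with Si-KDM4C#1 at a pseudocount of 0.1, with voom and after GC adjustment, at changes from -0.61 to -0.48, and without Scramble replicate 2 (-0.43) or Si-KDM4C#1 replicate 2 (-0.39).

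The Rel subunits are the DNA-binding parts of NF-kB. Of the 5, 3 rose and 1 fell with Si-KDM4C#1, and 0 rose and 2 fell with Si-KDM4C#2 (0 of the 5 also had a positive change at an unadjusted p under 0.05 by limma-trend). Of all genes tested, 31.7% were higher and 33.9% lower with the first siRNA and 34.4% and 25% with the second, and 5 genes are too few to tell from these shares. RELB (chr19:45001430-45038198, plus strand), the partner of the NFKB2 product in the alternative branch, had 1.05, 1.1 and 0.904 FPKM in the Scramble libraries, 3.47, 4.2 and 3.57 FPKM with Si-KDM4C#1 and 1.02, 0.889 and 0.927 FPKM with Si-KDM4C#2. The Si-KDM4C#1 libraries lay apart from all the others, at 3.68 times the Scramble mean. RELB rose by 1.23 ± 0.09 (adjusted p = 1.47e-06) with Si-KDM4C#1, changed by -0.05 ± 0.09 (adjusted p = 0.637) with Si-KDM4C#2 and differed by -1.28 ± 0.09 (adjusted p = 1.47e-06) between them. After GC adjustment RELB was lower with Si-KDM4C#2 by 0.43 (adjusted p = 0.00327).

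NFKB2 (chr10:102394110-102402529, plus strand), the precursor subunit of the alternative branch, had 16.4, 15.8 and 15.9 FPKM in the Scramble libraries, 27.7, 27.5 and 30.2 FPKM with Si-KDM4C#1 and 13.3, 13.6 and 13.3 FPKM with Si-KDM4C#2. It rose by 0.79 ± 0.04 (adjusted p = 2.84e-07) with Si-KDM4C#1 and fell by 0.25 (adjusted p = 8.66e-04) with Si-KDM4C#2, without overlap of the groups, and differed by -1.03 ± 0.04 (adjusted p = 7.67e-08). The fall was 0.54 after GC adjustment. NFKB1, the precursor subunit of the canonical branch, had 6.32, 5.69 and 5.44 FPKM in the Scramble libraries, 7.93, 7.11 and 6.8 FPKM with Si-KDM4C#1 and 5.59, 5.53 and 5.98 FPKM with Si-KDM4C#2. It rose with Si-KDM4C#1 by 0.28 ± 0.07 (adjusted p = 0.00491) and changed by -0.02 ± 0.07 (adjusted p = 0.782) with Si-KDM4C#2.

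RELA, the main activating subunit, had 18.7, 17.6 and 18.3 FPKM in the Scramble libraries, 15.5, 15.7 and 15.9 FPKM with Si-KDM4C#1 and 17, 15.6 and 16.2 FPKM with Si-KDM4C#2. It fell slightly with both siRNAs, by 0.20 (adjusted p = 0.00215) and 0.15 (adjusted p = 0.011), and by 0.41 and 0.41 after GC adjustment. REL, a subunit best known from lymphocytes, had 1.38, 1.25 and 1.26 FPKM in the Scramble libraries, 1.51, 1.4 and 0.666 FPKM with Si-KDM4C#1 and 1.28, 1.13 and 1.11 FPKM with Si-KDM4C#2. The third Si-KDM4C#1 library was the lowest of all, and REL passed with neither siRNA (-0.09 ± 0.15 (adjusted p = 0.611) and -0.08 ± 0.15 (adjusted p = 0.664)). An unlisted gene, AC010733.2, shares 43.3% of the exonic bases of REL on the same strand, so its reads could be split.

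The IkB proteins bind the Rel dimers, and their mRNAs moved apart. NFKBIB (chr19:38899700-38908893, plus strand), which encodes IkB beta, had 3.68, 4.3 and 4.14 FPKM in the Scramble libraries, 17, 18.8 and 20.9 FPKM with Si-KDM4C#1 and 10.4, 11.1 and 9.08 FPKM with Si-KDM4C#2. No library of either siRNA reached down to the Scramble range, and the Si-KDM4C#1 libraries were the highest. NFKBIB rose by 1.98 ± 0.09 (adjusted p = 8.96e-08) and 1.15 ± 0.09 (adjusted p = 4.37e-06), to 4.68 and 2.52 times the Scramble mean, and the siRNAs differed by -0.83 ± 0.09 (adjusted p = 2.94e-05). NFKBIB shares 40 exonic bases with SIRT2 on the opposite strand, and whether the counting used strand is not given in the sources used here. NFKBIA, which encodes IkB alpha and is itself an NF-kB target, had 38, 35.7 and 36.6 FPKM in the Scramble libraries, 24.8, 21.5 and 24.3 FPKM with Si-KDM4C#1 and 27.1, 28.6 and 27.3 FPKM with Si-KDM4C#2. All knockdown libraries lay below Scramble, and NFKBIA fell by 0.62 (adjusted p = 5.60e-06) and 0.40 (adjusted p = 1.70e-04). NFKBIZ, a nuclear IkB protein, had group means of 2.13 ± 0.112, 3.26 ± 0.221 and 2.99 ± 0.234 FPKM and rose by 0.45 ± 0.07 (adjusted p = 3.50e-04) and 0.35 ± 0.07 (adjusted p = 0.00196). NFKBIE, which encodes IkB epsilon, changed by -0.08 ± 0.08 (adjusted p = 0.379) and -0.17 ± 0.08 (adjusted p = 0.091), and passed with both siRNAs after GC adjustment, at -0.31 and -0.45.

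The IKK kinases phosphorylate the IkB proteins. CHUK (chr10:100188298-100229619, minus strand), the catalytic subunit IKK alpha, had 9.36, 9.2 and 8.82 FPKM in the Scramble libraries, 3.21, 3 and 2.95 FPKM with Si-KDM4C#1 and 4.27, 3.69 and 3.96 FPKM with Si-KDM4C#2. Every knockdown library lay below every Scramble library, and those of Si-KDM4C#1 were the lowest. CHUK fell by 1.32 (adjusted p = 7.27e-08) and 1.03 (adjusted p = 5.92e-07), to 0.334 and 0.435 of the Scramble mean. After GC adjustment the falls were 1.00 and 0.88. IKBKB, the catalytic subunit IKK beta, had group means of 4.68 ± 0.397, 4 ± 0.239 and 4.18 ± 0.0927 FPKM and fell with Si-KDM4C#1 by 0.18 (adjusted p = 0.0293). That call ended with quantile normalization, with all genes in the fit, with the 6 libraries alone and without any of 3 libraries (Scramble replicate 1, Si-KDM4C#1 replicate 2 or 3). With Si-KDM4C#2 its change was -0.13 ± 0.06 (adjusted p = 0.11), which passed with quantile normalization (-0.17) and after GC adjustment (-0.24). IKBKE, a related kinase, had group means of 3.18 ± 0.357, 4.08 ± 0.321 and 3.31 ± 0.0876 FPKM and rose with Si-KDM4C#1 by 0.28 ± 0.08 (adjusted p = 0.00794), which after GC adjustment was 0.11 and no longer passed.

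**Figure D4:**
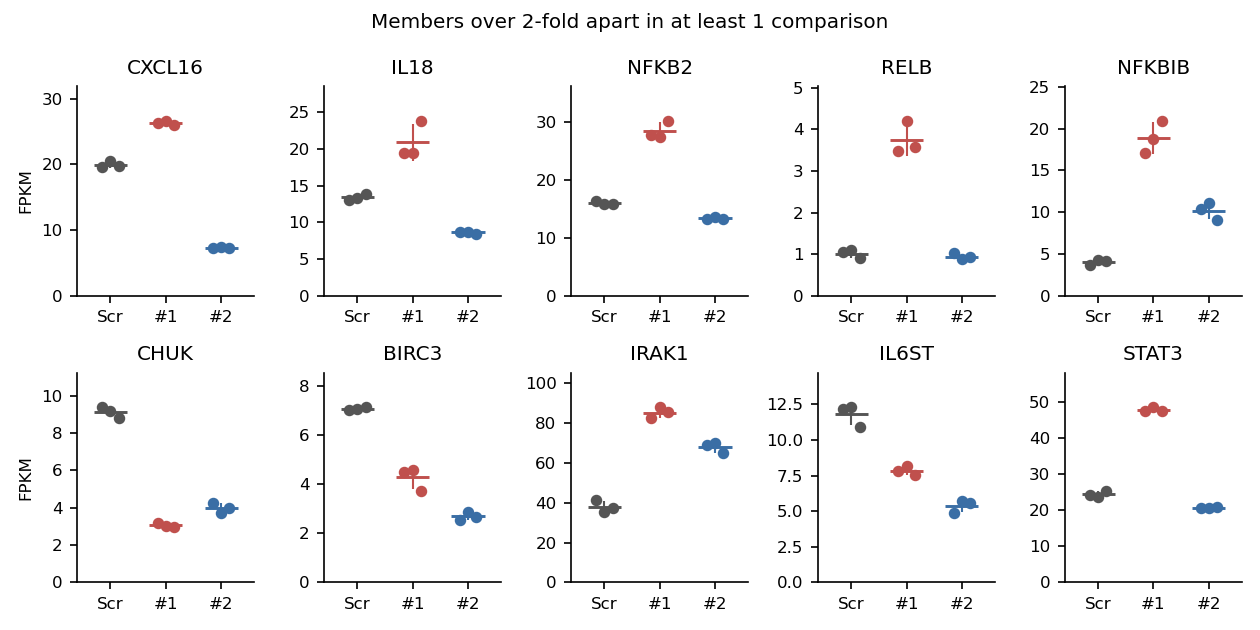
FPKM (y axis from 0, a separate scale for each gene) in each library for the 10 members past a 2-fold change in at least 1 of the 3 comparisons, with Scramble (Scr), Si-KDM4C#1 (#1) and Si-KDM4C#2 (#2) on the x axis, horizontal lines at the mean and vertical lines for 1 SD. NFKBIB and IRAK1 are higher and CHUK, BIRC3 and IL6ST lower in all knockdown libraries, while RELB and STAT3 are high only with Si-KDM4C#1.

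The adaptors and ubiquitin ligases carry receptor signals to the kinases. IRAK1 (chrX:154010500-154019980, minus strand), a kinase of the IL-1 and Toll-like receptor route, was the most abundant member, with 41.2, 35.6 and 37.3 FPKM in the Scramble libraries, 82.6, 87.9 and 85.4 FPKM with Si-KDM4C#1 and 69.2, 69.8 and 64.9 FPKM with Si-KDM4C#2. It rose by 1.15 ± 0.05 (adjusted p = 1.29e-07) and 0.82 ± 0.05 (adjusted p = 1.74e-06), with no overlap between groups, and after GC adjustment by 0.87 and 0.48. TRAF2, an adaptor of TNF receptors, had 10.1, 9.58 and 8.43 FPKM in the Scramble libraries, 14.2, 15.1 and 14.9 FPKM with Si-KDM4C#1 and 18.1, 15.4 and 17.4 FPKM with Si-KDM4C#2. All knockdown libraries lay above Scramble, and TRAF2 rose by 0.60 ± 0.07 (adjusted p = 6.39e-05) and 0.79 ± 0.07 (adjusted p = 1.43e-05), or 0.37 and 0.50 after GC adjustment. TRAF6, the adaptor of the IL-1 route, had group means of 4.62 ± 0.352, 5.75 ± 0.549 and 4.14 ± 0.284 FPKM and rose with Si-KDM4C#1 by 0.26 ± 0.08 (adjusted p = 0.013) (0.46 after GC adjustment), a call that ended without Si-KDM4C#1 replicate 3 (change of 0.22).

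BIRC3 (chr11:102317450-102339403, plus strand), the ubiquitin ligase cIAP2 and an NF-kB target, had 7.01, 7.05 and 7.13 FPKM in the Scramble libraries, 4.5, 4.59 and 3.74 FPKM with Si-KDM4C#1 and 2.54, 2.86 and 2.67 FPKM with Si-KDM4C#2. It fell by 0.62 (adjusted p = 3.75e-05) and 1.13 (adjusted p = 1.13e-06), with the Si-KDM4C#2 libraries the lowest. After GC adjustment these falls were 0.28 and 0.98. BIRC2, the related ligase cIAP1 next to it on chromosome 11, had 14.4, 15.1 and 14.9 FPKM in the Scramble libraries, 8.76, 9.55 and 8.45 FPKM with Si-KDM4C#1 and 10.6, 12.4 and 12.1 FPKM with Si-KDM4C#2. BIRC2 fell by 0.67 (adjusted p = 1.03e-05) and 0.32 (adjusted p = 0.00193), or 0.39 and 0.20 after GC adjustment. IRAK2, a pseudokinase of the same route, had group means of 6.71 ± 0.367, 5.83 ± 0.321 and 6.13 ± 0.0873 FPKM and fell with Si-KDM4C#1 by 0.18 (adjusted p = 0.0165), a call that ended with voom and without Scramble replicate 1 or Si-KDM4C#1 replicate 3. With Si-KDM4C#2 IRAK2 changed by -0.11 ± 0.05 (adjusted p = 0.0983), which passed with quantile normalization (-0.16) and after GC adjustment (-0.20). TRAF1, an NF-kB target under 1 FPKM in every group, had 0.534, 0.254 and 0.353 FPKM in the Scramble libraries, 0.0859, 0.106 and 0.0869 FPKM with Si-KDM4C#1 and 0.33, 0.289 and 0.4 FPKM with Si-KDM4C#2. The Si-KDM4C#1 libraries lay below all others, and in the fit over all listed genes TRAF1 changed by -0.33 ± 0.08 (adjusted p = 0.0127) with Si-KDM4C#1 and -0.04 ± 0.08 (adjusted p = 0.786) with Si-KDM4C#2. The first of these no longer passed after GC adjustment over all listed genes (-0.20).

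Both feedback inhibitors restrain the pathway once it is on. TNFAIP3, the ubiquitin-editing enzyme A20, had 13.7, 14.5 and 13.9 FPKM in the Scramble libraries, 9.3, 10.2 and 10.0 FPKM with Si-KDM4C#1 and 11.8, 11.3 and 12 FPKM with Si-KDM4C#2. The groups did not overlap, and TNFAIP3 fell by 0.47 (adjusted p = 1.40e-05) and 0.24 (adjusted p = 0.0015). TNIP1, its binding partner, had group means of 11.1 ± 0.918, 11.6 ± 0.207 and 11.3 ± 0.278 FPKM and changed by 0.07 ± 0.06 (adjusted p = 0.321) and 0.03 ± 0.06 (adjusted p = 0.637), and was lower with Si-KDM4C#2 by 0.17 (adjusted p = 0.0309) after GC adjustment.

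The induced targets went different ways. ICAM1, a leukocyte adhesion molecule, had 1.86, 1.85 and 1.1 FPKM in the Scramble libraries, 2.72, 2.74 and 2.91 FPKM with Si-KDM4C#1 and 1.32, 1.46 and 1.64 FPKM with Si-KDM4C#2. It rose with Si-KDM4C#1 by 0.55 ± 0.12 (adjusted p = 0.00272), with all its libraries above the others, and changed by -0.06 ± 0.12 (adjusted p = 0.687) with Si-KDM4C#2. The siRNAs differed for ICAM1 by -0.62 ± 0.12 (adjusted p = 0.0016). ICAM1 shares 815 exonic bases (22%) with an unlisted gene, AC011511.5, on the opposite strand, and whether the counting used strand is not given. SOD2, the mitochondrial superoxide dismutase, had 3.86, 3.41 and 3.65 FPKM in the Scramble libraries, 4.65, 4.12 and 4.38 FPKM with Si-KDM4C#1 and 5.84, 5.81 and 5.77 FPKM with Si-KDM4C#2 for its main identifier, while the other was at 0 or 1 fragment in every library. SOD2 rose by 0.21 ± 0.06 (adjusted p = 0.0082) and 0.55 ± 0.06 (adjusted p = 2.74e-05), with the Si-KDM4C#2 libraries the highest, and the first rise was 0.38 after GC adjustment. TNFAIP2 had group means of 26.3 ± 2.28, 22.5 ± 0.418 and 19.7 ± 0.482 FPKM and fell by 0.21 (adjusted p = 0.00852) and 0.40 (adjusted p = 2.28e-04), or 0.43 and 0.66 after GC adjustment.

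In the IL-6 receptor and STAT3 arm, IL6ST (chr5:55935095-55994993, minus strand), the shared signalling subunit gp130, had 12.2, 12.3 and 10.9 FPKM in the Scramble libraries, 7.85, 8.19 and 7.52 FPKM with Si-KDM4C#1 and 4.87, 5.69 and 5.56 FPKM with Si-KDM4C#2. It fell by 0.53 (adjusted p = 7.17e-05) and 1.01 (adjusted p = 1.63e-06), with no overlap between groups, and by 0.20 and 0.86 after GC adjustment. IL6R, the ligand-binding subunit, had group means of 2.47 ± 0.0852, 1.69 ± 0.183 and 1.71 ± 0.2 FPKM and fell by 0.37 (adjusted p = 0.0036) and 0.36 (adjusted p = 0.00484). STAT3 (chr17:42313324-42388568, minus strand), the transcription factor of this arm, had 24.2, 23.7 and 25.4 FPKM in the Scramble libraries, 47.6, 48.5 and 47.5 FPKM with Si-KDM4C#1 and 20.6, 20.6 and 20.9 FPKM with Si-KDM4C#2. Its Si-KDM4C#1 libraries were near 1.96 times the Scramble mean and its Si-KDM4C#2 libraries were the lowest. STAT3 rose by 0.94 ± 0.04 (adjusted p = 3.11e-08) with Si-KDM4C#1, fell by 0.23 (adjusted p = 3.90e-04) with Si-KDM4C#2, and differed between them by -1.17 ± 0.04 (adjusted p = 1.43e-08). SOCS3, a STAT3 target that inhibits the receptor, had 18.4, 18.4 and 19.6 FPKM in the Scramble libraries, 30.0, 29.4 and 32.7 FPKM with Si-KDM4C#1 and 22.7, 22.6 and 22.5 FPKM with Si-KDM4C#2. It rose by 0.68 ± 0.05 (adjusted p = 1.19e-06) with Si-KDM4C#1 and 0.26 ± 0.05 (adjusted p = 0.00109) with Si-KDM4C#2, and after GC adjustment these values were 0.44 and -0.042, so the direction with Si-KDM4C#2 did not hold under that adjustment.

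Further genes of the pathway were counted by lists, to be read against the shares of all genes tested that were called (with Si-KDM4C#1, 31.7% rose and 33.9% fell, and with Si-KDM4C#2, 34.4% rose and 25% fell). Of 33 tested receptors and adaptors of NF-kB signalling, 14 rose and 14 fell with Si-KDM4C#1, and 11 rose and 16 fell with Si-KDM4C#2 (42.4% and 42.4%, then 33.3% and 48.5%). TNFRSF12A, the receptor of the cytokine TWEAK, changed by 1.79 ± 0.10 (adjusted p = 3.61e-07) and 0.80 ± 0.10 (adjusted p = 1.11e-04), the latter being 0.46 after GC adjustment. TRAF3, a brake on the alternative branch, rose by 1.18 ± 0.07 (adjusted p = 4.90e-07) and 1.06 ± 0.07 (adjusted p = 1.71e-06). IRAK4, the kinase upstream of IRAK1, fell by 1.07 (adjusted p = 7.89e-07) and 0.37 (adjusted p = 0.00135).

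Of 19 tested further NF-kB induced genes, 6 rose and 9 fell with Si-KDM4C#1, and 4 rose and 9 fell with Si-KDM4C#2 (31.6% and 47.4%, then 21.1% and 47.4%, beside the same shares of all genes). BCL2L1, a survival gene, rose by 1.73 ± 0.09 (adjusted p = 2.80e-07) and 0.68 ± 0.09 (adjusted p = 2.04e-04), and SDC4, a cell surface proteoglycan, by 1.44 ± 0.08 and 0.45 ± 0.08. PTGS2, the prostaglandin synthase COX-2, fell by 1.16 (adjusted p = 1.60e-06) and 0.98 (adjusted p = 8.08e-06). CD83 fell by 1.23 and 0.55, and EBI3, a subunit of IL-27, by 0.44 and 1.16, all at an adjusted p of 0.004 or less. The first fall of EBI3 was 0.67 after GC adjustment.

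Of 34 listed further chemokines, cytokines and colony stimulating factors, 9 were tested. Of these, 3 rose and 4 fell with Si-KDM4C#1, and 1 rose and 4 fell with Si-KDM4C#2 (33.3% and 44.4%, then 11.1% and 44.4%, against 31.7% and 33.9%, then 34.4% and 25% of all genes). CXCL10, an interferon-induced chemokine of another cluster on chromosome 4, had 2.25, 2.25 and 1.69 FPKM in the Scramble libraries, 0.377, 0.583 and 0.318 FPKM with Si-KDM4C#1 and 1.54, 1.42 and 1.3 FPKM with Si-KDM4C#2. It fell by 1.10 (adjusted p = 2.10e-05) and 0.34 (adjusted p = 0.0304), and the second fall did not pass with voom or after GC adjustment. CCL26 had 2.35, 2.85 and 2.73 FPKM in the Scramble libraries, 0.392, 0.97 and 0.264 FPKM with Si-KDM4C#1 and 1.37, 0.728 and 1.41 FPKM with Si-KDM4C#2, and fell by 1.26 (adjusted p = 2.11e-04) and 0.76 (adjusted p = 0.00585).

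Of 12 tested chemokine and IL-6 family receptors, JAK kinases and their regulators, 3 rose and 4 fell with Si-KDM4C#1, and 4 rose and 5 fell with Si-KDM4C#2 (25% and 33.3%, then 33.3% and 41.7%, against the same shares of all genes). PTPN11, the phosphatase SHP2 that binds IL6ST, rose by 1.11 ± 0.06 (adjusted p = 1.62e-07) and 1.23 ± 0.06 (adjusted p = 1.69e-07). Of 15 listed liver acute phase genes, only 2 were tested, and both were lower with both siRNAs. Of all genes tested, 15.2% were lower with both, and 2 genes are too few to tell from this share. A2M, a protease inhibitor, had 2.79, 2.59 and 2.53 FPKM in the Scramble libraries, 1.45, 1.16 and 1.2 FPKM with Si-KDM4C#1 and 0.364, 0.413 and 0.441 FPKM with Si-KDM4C#2 and fell by 0.68 (adjusted p = 9.51e-05) and 1.37 (adjusted p = 1.49e-06).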

How the data were processed

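RNA of 9 Huh7 libraries was measured by paired-end sequencing, with 3 groups of 3 libraries taken from the labels. The values used are FPKM as deposited by the authors, in a separate list for each library. The submitters' processing notes name FastQC 0.11.5, HISAT2 2.1.0, StringTie 1.3.3b, featureCounts, DESeq 1.28.0 and GRCh38, with no role or order, and the use of strand is not given in the sources used here. FPKM corrects for length and depth but not for composition or GC content.

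The 14363 genes whose group mean reached 1 FPKM in any group were compared on log2(FPKM + 1) with limma-trend (limma 3.58.1, R 4.3.3), all 9 libraries in 1 fit without covariates, and Benjamini-Hochberg adjustment over all genes. Lower members came from a fit over all 32906 genes, and their GC adjustment was likewise made over all listed genes. A fold change on this scale understates the change of low genes. Calls were made at an adjusted p under 0.05, and also with a fold change over 2. Fragments were recovered as FPKM times the exon length of GENCODE release 29 and a fitted total per library, which gave whole numbers (within 0.05) for 97.5% to 97.7% of values per library. IKBKB was the only member whose values were not whole. Alternatives were a pseudocount of 0.1, no filter, a filter on the mean of the 9 libraries (1 FPKM, 13175 genes), quantile normalization, the replicate number as a block, the 6 libraries of a comparison alone, voom on recovered fragments (at least 10 in at least 3 libraries, 16008 genes), a lowess GC adjustment (span 0.3) and leaving out each library. Counts of replicate libraries spread beyond sampling error, with a chi-square over its degrees of freedom of 2.56 to 5.13.

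Values in every library are given for the CXC chemokines of chromosome 4, the Rel subunits, members past a 2-fold change in any comparison and the 10 other tested members with the largest called change. TNF, TRAF1 and IL6 fall outside this rule and were chosen after their values were seen. Of the other pathway lists, the 12 genes with the largest change past 2-fold are named. The members and lists were chosen with earlier results of these data known. Python 3.11.15 with pandas 2.3.3, numpy 2.4.6 and matplotlib 3.10.9 served for tables and plots, and promoter windows came from RefSeq (GRCh38.p14). Of these methods, only limma-trend was also tried on simulated data.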

Additional observations from a re-analysis of the deposited data

Results flagged for a closer look

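For 4 members, the changes with the siRNAs had opposite directions, each at an adjusted p under 0.05. All 4 rose with the first siRNA and fell with the second (12.1% of the tested members). Of all genes tested, 4.11% showed this order and 5.66% the reverse. The direct comparison of Si-KDM4C#2 with Si-KDM4C#1 also passed limma-trend for these 4. In the shared fit, this difference is the second change minus the first, with the same SE. Its pass therefore follows from how the 4 were picked and is not separate evidence. The log2 differences were -1.71 for CXCL16 (adjusted p = 2.12e-09), -1.18 for IL18 (adjusted p = 7.58e-07), -1.03 for NFKB2 (adjusted p = 7.67e-08) and -1.17 for STAT3 (adjusted p = 1.43e-08). In each case, all 3 Si-KDM4C#1 libraries lay above and all 3 Si-KDM4C#2 libraries below all Scramble libraries. This separation describes the values behind the same calls and is not a further test. KDM4B, lower with Si-KDM4C#2 by 1.74 and changed by -0.11 with Si-KDM4C#1, is a measured difference between the siRNAs whose part in these results was not tested.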

How the results depend on the processing

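Of the values of single members under an alternative, 1681 of 1792 kept their direction and their side of the threshold, 57 no longer passed, 18 newly passed and 36 changed sign. No filter, the filter on the mean, the 6 libraries alone and the replicate block cannot change a fold change, only its p-value. The same holds for leaving out a library of the group not compared, so part of this agreement in direction was fixed beforehand. The counts at an adjusted p under 0.05 stayed within 1.5 times under every alternative. The counts past 2-fold were more sensitive. After GC adjustment, 1 member passed as higher and 0 as lower with Si-KDM4C#1, and 0 passed as higher and 1 as lower with Si-KDM4C#2. Without the 2-fold limit, limma-trend then called 14 higher and 15 lower with the first siRNA and 5 higher and 21 lower with the second. Shares of all genes were taken in the main fit alone. Counts of members under any alternative therefore have no matching share and cannot be read against those of the main fit. At a pseudocount of 0.1 and with voom, 3 members were lower with Si-KDM4C#1, and 1 member was higher with Si-KDM4C#2 than with Si-KDM4C#1. Of called values, SOCS3 with Si-KDM4C#2 alone changed sign, to -0.042 after GC adjustment. The other sign changes were of values that had not passed. After GC adjustment these were CXCL8 (0.12), IL1A (0.15), LIF (-0.059), REL (0.20) and TNIP1 (-0.093) with Si-KDM4C#1, and IL1B (0.027), IL6 (0.017), CSF1 (-0.17), REL (0.044), IKBKE (-0.17) and TNIP1 (-0.17) with Si-KDM4C#2. With quantile normalization they were CXCL8 (0.030), IL1A (0.037) and REL (0.073) with Si-KDM4C#1, and IL6 (0.0074), TRAF1 (0.0098) and TNIP1 (-0.056) with Si-KDM4C#2. With voom they were CSF1 (-0.0073) and TNIP1 (-0.028) with Si-KDM4C#2. Of these genes, CXCL8, IL1A, IL1B, IL6 and TRAF1 lay under 1 FPKM in every group, and their GC adjustment was made over all listed genes. The cause was not tested.

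Leaving out single libraries, the values that changed sign ranged over -0.092 to 0.049 (IL1A), -0.0096 to 0.048 (IL1B) and -0.20 to 0.095 (REL) with Si-KDM4C#1. With Si-KDM4C#2 the ranges were -0.10 to 0.21 (CCL2), -0.082 to 0.086 (CSF1), -0.21 to 0.014 (ICAM1), -0.035 to 0.020 (IL1B), -0.094 to 0.024 (IL6), -0.064 to 0.029 (NFKB1), -0.026 to 0.084 (TNIP1) and -0.11 to 0.040 (TRAF1). Differences between the siRNAs that lost their call without a single library were those of CSF1, IKBKE, TNFAIP2, TRAF1 and TRAF2. Same-numbered libraries of different groups did not deviate together (mean correlation 0.016 over 9 pairs, against -0.0081 over 18 pairs of unlike numbers), so the numbers were not taken as pairs. With the replicate number as a block, the calls with Si-KDM4C#1 again numbered 15 higher and 13 lower, those with Si-KDM4C#2 numbered 6 and 15, and 7 instead of 9 members were higher with Si-KDM4C#2 than with Si-KDM4C#1.

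Depth limits CXCL2, CXCL3, CXCL8, IL1A, IL1B, IL6 and TNF, where no library held over 26 fragments. A p-value that misses the threshold there does not show that values were alike. With 3 libraries a group, the direct test of the siRNAs rests on 6 libraries and a spread shared with Scramble. Fragments lack molecular identifiers, so their counting error is a lower limit.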

Other observations

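Of 6 fibroblast and endothelial markers, 3 were tested. With Si-KDM4C#1, 1 rose and 1 fell, the latter past 2-fold, and with Si-KDM4C#2, 2 rose and 1 fell. Of all genes tested, 31.7% rose and 33.9% fell, then 34.4% and 25%. The list summed to 43 to 46 FPKM in the Scramble libraries, 52.9 to 56 FPKM with Si-KDM4C#1 and 73.3 to 75.5 FPKM with Si-KDM4C#2, with COL3A1, a fibrillar collagen, at means of 27.5, 38.5 and 55.5 FPKM. The epithelial list, carried by KRT8 and KRT18, summed to 330 to 353, 289.7 to 308.9 and 240.1 to 254 FPKM in the same order. The listed hepatocyte markers were highest for HNF4A, a liver transcription factor, at 0.116 FPKM in the Scramble libraries, and 2 of the 8 were at 0 in all libraries of each group.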
